A study of Homo sapiens with 6 samples.

Results

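Antisense noncoding RNAs, the transcripts that human gene nomenclature names after the protein-coding gene on the opposite strand with an -AS suffix, were followed through heating and X-irradiation of A549, an established cell line from a human lung adenocarcinoma. The members were chosen by name and by level: they are the genes whose array symbol ends in -AS1, -AS2 or -AS3 and whose mean log2 level over the 6 arrays was 5 or more, with PARD6G-AS1 and IDI2-AS1 left out by name. There were 121 such genes, of 475 antisense symbols and 14884 genes measured. A further 353 antisense symbols lay under the level threshold, IDI2-AS1 (mean 4.95) among them. All 6 groups were A549 cells grown for 24 h at 37 °C, and each group was 1 array. They were cells heated for 1 h at 44 °C and then given 3 Gy of X-rays, cells heated at 44 °C alone, cells heated for 1 h at 41.5 °C and then given 3 Gy, cells heated at 41.5 °C alone, cells given 3 Gy at 37 °C, and untreated control cells. Cells with a single treatment were kept for 3 h at 37 °C afterwards. The labels state no such time for the combined treatments or the control, so time in culture and treatment cannot be told apart in a comparison with the control. Whether the 6 arrays stem from separate cultures is not stated, and the p-values therefore measure the spread among them alone, which could be technical.

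An antisense RNA is transcribed from the strand opposite to a named sense gene. Its start may lie head to head with that of the sense gene, so that a shared promoter region fires in both directions, or inside or beyond the sense gene, so that the transcripts overlap. Some antisense RNAs are known to change the stability, splicing or transcription of the sense RNA, others act elsewhere, and many have no known role. Short-lived transcripts of this kind are trimmed in the nucleus by the RNA exosome, and severe heat is known to disturb splicing and transcription termination. The sources used here do not state whether the array signal keeps the strand, so where an antisense RNA overlaps another transcript the separation of their signals is uncertain.

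The members were of modest level. Their mean log2 levels lay between 5.00, a bound set by the threshold, and 7.80, with a median of 5.51. The median of all genes, which had no such threshold, was 5.39. In 8 members the mean was 7 or more, in 24 it lay from 6 to 7, and in 89 from 5 to 6. The highest was DLGAP1-AS1 at 7.80, followed by PITPNA-AS1 at 7.73, FGD5-AS1 at 7.32, DHRS4-AS1 at 7.25 and PCNA-AS1 at 7.13. Each level is a probe-set summary, so the order between genes may also reflect the probes. Most members varied little: the range over the 6 arrays had a median of 0.52 on the log2 scale, was under 0.5 in 55 members and 1 or more in 7. PITPNA-AS1, named for a phosphatidylinositol transfer protein, held between 7.70 and 7.76 in every array. Among those just inside the threshold were UXT-AS1 at 5.00 and UPK1A-AS1 at 5.04, and just outside it KIAA1671-AS1 at 4.99, ZEB1-AS1 at 4.99 and ZNF566-AS1 at 4.98. The threshold itself uses all arrays. MORF4L2-AS1, PTOV1-AS1, PRC1-AS1 and UXT-AS1 passed it only through the 44 °C arrays, so these 4 had to be higher there, and 6 members passed only through the 41.5 °C arrays, none of which was called in any comparison. Of the RNAs left out by name, PARD6G-AS1 stood at 7.01 with and 7.25 without X-rays at 44 °C, against 4.45 with and 4.05 without at 37 °C, and IDI2-AS1 at 6.75 with and 6.51 without at 44 °C, against 3.59 with and 4.03 without at 37 °C.

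The array values carried the marks of an epithelial line. Of 10 epithelial and A549 markers 6 were measured, and 5 of them, among them the keratin KRT18 with a mean of 11.51, were at 5 or more in every array. Between 44 °C and 41.5 °C 3 of the 6 were called: CLDN1 (log2 difference -0.49) and KRT7 (-0.40) lower and EPCAM (0.45) higher, and CLDN1 rose at 41.5 °C against 37 °C (0.40). Of the measured markers of other cell types, 0 of 3 endothelial and 0 of 2 fibroblast genes reached 5 in any array. Of 2 leukocyte markers, LYZ averaged 3.03 and CD14 5.41. CD14 was higher at 44 °C than at 41.5 °C (log2 difference 0.77 ± 0.13, adjusted p = 0.00362), and the part of these markers in the results below was not tested. The array medians lay between 4.39 and 4.46. In such bulk RNA, fewer cells with a transcript and less of it per cell cannot be told apart.

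RefSeq promoter windows of assembly GRCh38.p14, which run from 250 bases before to 50 bases after the first listed start, were at hand for 103 of the 121 members and for 27305 genes in all. The member windows held a median of 23 CpG dinucleotides, against 14 over all windows, and a median of 64.3% G and C, against 58.3%. Motifs of heat and stress factors were searched on both strands. The pair of heat shock factor half-sites GAANNTTC was in 8 member windows and in 6.87% of all windows, and the reverse arrangement TTCNNGAA in 5 member windows and 7.84% of all. The element with 3 alternating half-sites, which contains both pairs, was in 1 member window and in 0.487% of all. The AP-1 element TGANTCA was in 6 member windows and in 7.76% of all, the cAMP response element TGACGTCA in 1 and in 1.98%, and the EGR1 element GCGTGGGCG in 0 and in 0.784%. The inverted CCAAT box ATTGG was in 36 member windows and in 35.7% of all. Leaving the CCAAT box aside, a motif was found in 7 of the 27 members with a window that were called in some temperature comparison (25.9%), in 11 of 76 uncalled members (14.5%) and in 22.4% of all windows. The windows below belong to 5 of the 7 called members with a motif, with the heat shock or AP-1 letters in capitals. The others, GABPB1-AS1 and SVIL-AS1, are not printed. They hold the AP-1 letters at positions 203 to 209 and 101 to 107 of their windows. Of those printed, UXT-AS1 and PRC1-AS1 passed the level threshold only through the arrays at the highest temperature. Both count in the 25.9% of called members, so that share depends in part on the choice of members. The differences between the shares were not tested. The TSPEAR-AS2 window (chr21:44516965-44517264, plus strand) is the only member window with 3 half-sites. They lie at positions 246 to 258 of the window and so across the start itself. UXT-AS1 (chrX:47658583-47658882, plus strand), TMEM44-AS1 (chr3:194584018-194584317, plus strand) and PRC1-AS1 (chr15:90966119-90966418, plus strand) hold a single pair, and PRR7-AS1 (chr5:177447895-177448194, minus strand) holds the AP-1 letters at 2 places. A match describes the letters only.
TSPEAR-AS2: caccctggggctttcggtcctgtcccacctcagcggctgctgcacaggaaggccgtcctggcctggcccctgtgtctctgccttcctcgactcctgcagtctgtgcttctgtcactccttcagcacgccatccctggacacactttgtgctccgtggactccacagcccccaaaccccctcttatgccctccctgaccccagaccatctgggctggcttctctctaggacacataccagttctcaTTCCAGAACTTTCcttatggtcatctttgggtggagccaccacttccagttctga
UXT-AS1: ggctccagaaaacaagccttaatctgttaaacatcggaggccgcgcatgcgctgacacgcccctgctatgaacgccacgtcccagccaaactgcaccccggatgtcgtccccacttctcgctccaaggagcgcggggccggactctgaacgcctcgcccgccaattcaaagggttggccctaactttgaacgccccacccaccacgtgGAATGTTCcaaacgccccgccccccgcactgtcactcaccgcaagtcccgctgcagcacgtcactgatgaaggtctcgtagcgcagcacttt
TMEM44-AS1: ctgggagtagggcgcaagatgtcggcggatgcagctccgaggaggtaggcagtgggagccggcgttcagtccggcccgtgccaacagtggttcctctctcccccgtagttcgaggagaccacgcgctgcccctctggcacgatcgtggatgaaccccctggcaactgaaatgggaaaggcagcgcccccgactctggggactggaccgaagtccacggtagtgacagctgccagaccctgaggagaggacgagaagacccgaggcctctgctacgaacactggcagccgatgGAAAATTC
PRC1-AS1: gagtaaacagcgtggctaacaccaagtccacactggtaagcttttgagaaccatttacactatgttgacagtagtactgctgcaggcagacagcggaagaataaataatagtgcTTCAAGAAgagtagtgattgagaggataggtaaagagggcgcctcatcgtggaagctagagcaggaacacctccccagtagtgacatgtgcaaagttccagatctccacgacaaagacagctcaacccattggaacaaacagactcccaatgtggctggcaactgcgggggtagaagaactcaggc
PRR7-AS1: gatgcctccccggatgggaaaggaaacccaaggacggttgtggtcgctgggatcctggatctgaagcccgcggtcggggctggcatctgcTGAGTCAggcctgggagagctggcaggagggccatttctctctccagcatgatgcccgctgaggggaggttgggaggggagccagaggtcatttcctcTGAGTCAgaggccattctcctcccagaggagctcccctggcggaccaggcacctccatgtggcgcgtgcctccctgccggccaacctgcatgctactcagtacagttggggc

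The first comparison asked which antisense RNAs differed after heating at 44 °C. At 44 °C against 37 °C, 13 of the 121 members passed limma's test at an adjusted p under 0.05 in the fit over all genes, of which 4 rose and 9 fell. Over all 14884 genes the share was 6.11%, with 3.57% higher and 2.54% lower, and over the 8604 genes with a mean level of 5 or more it was 8.77%. For the members the share was 10.7%. Their median log2 difference was -0.06, against -0.04 for all genes and -0.05 for those at 5 or more. Without the 4 members that passed the threshold only through the 44 °C arrays, 10 of 117 were called, 1 of them higher and 9 lower. That share, 8.55%, was near the 8.77% of genes at 5 or more. At an unadjusted p under 0.05 there were 42 members, or 34.7%, and 38 of those 117, or 32.5%, against 27.5% of genes at 5 or more and 20.5% of all genes.

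**Figure D1:**
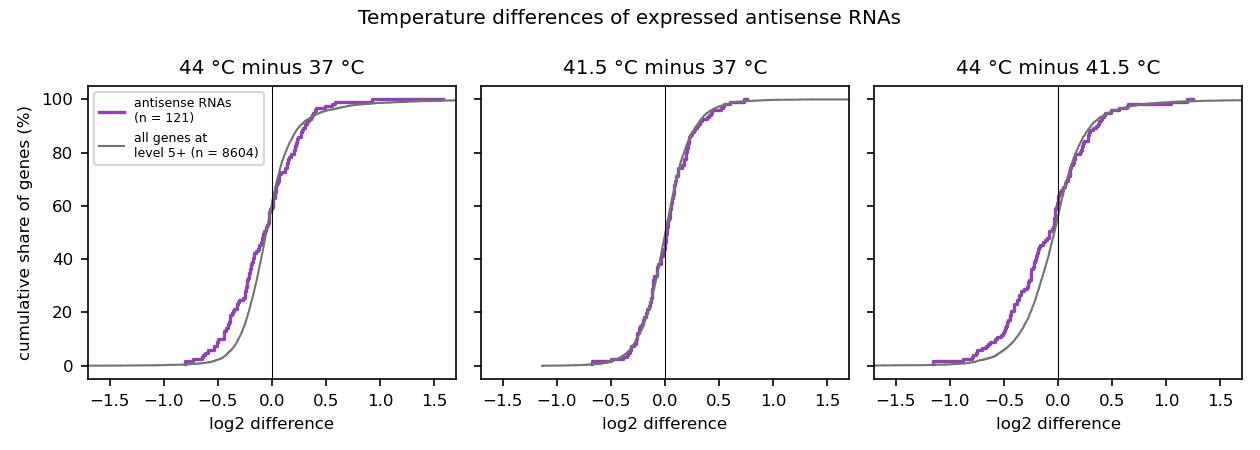
Cumulative share of genes (y, percent) against the log2 difference (x) between 44 °C and 37 °C, 41.5 °C and 37 °C, and 44 °C and 41.5 °C, each from 2 arrays a temperature. The purple line is the 121 antisense RNAs and the grey line the 8604 genes at a level of 5 or more. Against 37 °C, 71 members and 5221 of these genes were lower at 44 °C, and 9 members were called lower. Against 41.5 °C the counts were 75, 4835 and 19.

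Among the 4 that rose, MORF4L2-AS1 changed most. It is named for MORF4L2, a protein of histone acetyltransferase complexes. Its level was 6.43 with and 6.25 without X-rays at 44 °C, 5.16 with and 5.13 without at 41.5 °C, and 4.64 with and 4.88 without at 37 °C. Both 44 °C arrays lay above all others, and the rise at 44 °C against 37 °C was 2.99-fold (log2 difference 1.58 ± 0.14 (SE), adjusted p = 7.55e-05). PTOV1-AS1, named for a gene overexpressed in prostate tumours, stood at 5.83 with and 6.05 without X-rays at 44 °C, against 5.01 with and 5.01 without at 37 °C. It rose 1.90-fold (0.93 ± 0.14, adjusted p = 0.00369). UXT-AS1, named for a prefoldin-like chaperone, stood at 5.26 with and 5.57 without X-rays at 44 °C, against 4.73 with and 4.94 without at 37 °C (0.58 ± 0.14, adjusted p = 0.0324). These 3 are among the members that entered through the 44 °C arrays. ZNF674-AS1, named for a zinc finger gene, was the other: 6.64 with and 6.61 without X-rays at 44 °C, against 6.18 with and 6.07 without at 37 °C (0.50 ± 0.11, adjusted p = 0.0226).

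The 9 that fell did so by between 0.44 and 0.80 on the log2 scale. The rises of MORF4L2-AS1 and PTOV1-AS1 were larger, but both entered through the 44 °C arrays, which favours a rise there. ZNF674-AS1, which did not, rose by 0.50. GABPB1-AS1, named for a subunit of the ETS-family factor GABP, stood at 5.84 with and 5.83 without X-rays at 44 °C, against 6.44 with and 6.84 without at 37 °C. It was 1.75-fold lower (log2 difference -0.80 ± 0.13, adjusted p = 0.00438), and its 41.5 °C levels of 6.57 with and 6.51 without X-rays lay among those at 37 °C. DLGAP1-AS1, the member with the highest level and named for a postsynaptic scaffold protein, stood at 7.43 with and 7.37 without X-rays at 44 °C, against 7.95 with and 8.09 without at 37 °C. It was 1.54-fold lower (-0.62 ± 0.09, adjusted p = 0.00204), and its 4 other arrays lay between 7.95 and 8.09. CCDC18-AS1, named for a coiled-coil gene, stood at 4.88 with and 4.83 without X-rays at 44 °C, against 5.46 with and 5.51 without at 37 °C (-0.63 ± 0.13, adjusted p = 0.0171). PDCD4-AS1, named for an inhibitor of the helicase of translation initiation, stood at 4.93 with and 5.01 without X-rays at 44 °C, against 5.49 with and 5.48 without at 37 °C (-0.51 ± 0.13, adjusted p = 0.0434).

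The other 5 that fell were SLFNL1-AS1 (-0.73 ± 0.16, adjusted p = 0.0276), GAS6-AS1 (-0.65 ± 0.13, adjusted p = 0.0181), TMEM147-AS1 (-0.59 ± 0.12, adjusted p = 0.0185), FRMD6-AS1 (-0.54 ± 0.12, adjusted p = 0.0229) and NIFK-AS1 (-0.44 ± 0.11, adjusted p = 0.047). They are named for a schlafen-like gene, for a ligand of the TYRO3, AXL and MERTK receptors, for a membrane protein of the endoplasmic reticulum, for a FERM-domain protein upstream of Hippo signalling and for a nucleolar partner of Ki-67. The GAS6-AS1 values overlapped between temperatures, its irradiated 44 °C array (5.96) lying just above the unirradiated 37 °C array (5.93). A second GAS6-AS1 feature differed by -0.25 at 44 °C, and a dim second feature of PDCD4-AS1, between 1.55 and 1.78 in the 6 arrays, by -0.14. With the mean of their features, GAS6-AS1 and PDCD4-AS1 were not called (adjusted p = 0.10 for GAS6-AS1 and 0.306 for PDCD4-AS1). HLA-F-AS1 went the other way and was called, higher at 44 °C, only with the mean of its features. The HLA-F-AS1 feature used differed by 0.27 and its others by 0.56 to 0.87. The calls leaned on both 37 °C arrays: 12 of the 13 were lost without the control array (adjusted p between 0.0906 and 0.364, MORF4L2-AS1 remaining) and 9 without the irradiated 37 °C array (0.0859 to 0.268). Without the unirradiated 44 °C array 7 were lost and without the irradiated 44 °C array 6, and in no case did a difference change sign. Over all genes, too, a smaller share was called without any 1 of these arrays, so such losses were not particular to the members. The difference of SLFNL1-AS1 was -0.39 without the control array, and that of GAS6-AS1 was -0.42 without the irradiated 44 °C array.

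**Figure D2:**
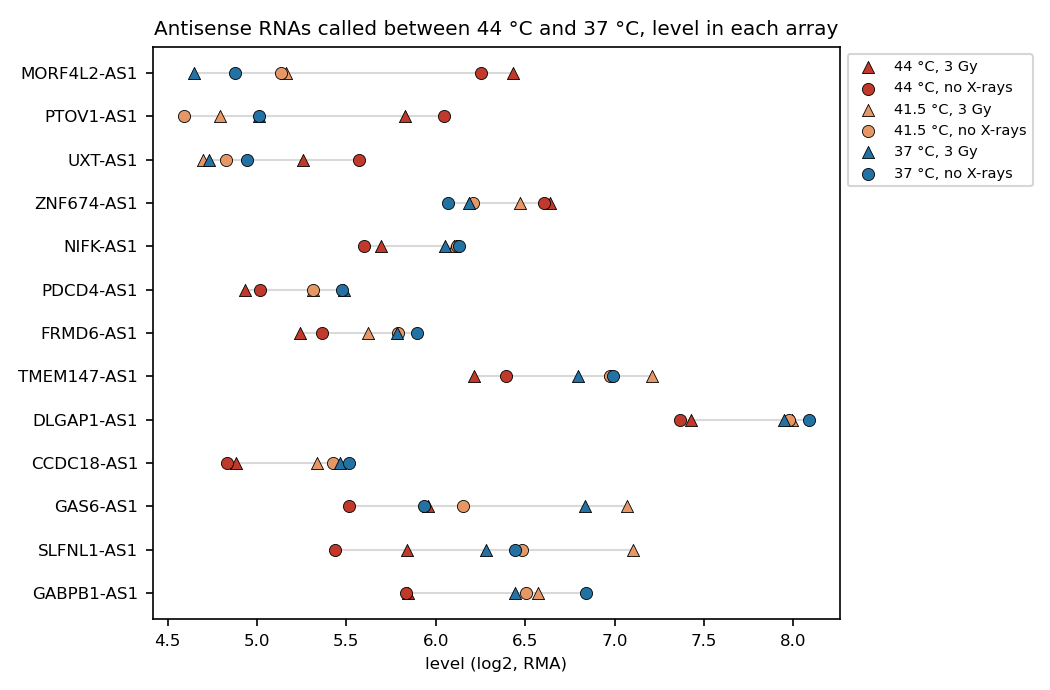
Level (x, log2 RMA) of the 13 antisense RNAs called between 44 °C and 37 °C (rows) in each of the 6 arrays, with red for 44 °C, orange for 41.5 °C and blue for 37 °C, triangles for 3 Gy and circles for no X-rays. The red points of MORF4L2-AS1, at 6.43 and 6.25, lie apart from its other 4 arrays, while those of DLGAP1-AS1, at 7.43 and 7.37, lie below its others.

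The second comparison asked what heating at 41.5 °C changed. At 41.5 °C against 37 °C, 5 of the 121 members were called, or 4.13%, against 3.29% of all genes (2.18% higher and 1.1% lower) and 5.32% of the genes with a level of 5 or more, so the share was near the background. The median difference was 0.02. PRR7-AS1, named for a proline-rich membrane protein, stood at 6.33 with and 6.41 without X-rays at 41.5 °C, against 5.58 with and 5.63 without at 37 °C. It rose 1.7-fold (log2 difference 0.76 ± 0.11, adjusted p = 0.00615), and its 44 °C arrays, at 5.52 with and 5.61 without X-rays, lay close to those at 37 °C. TMEM44-AS1 stood at 5.97 with and 5.59 without X-rays at 41.5 °C, against 5.19 with and 4.90 without at 37 °C (1.66-fold, 0.73 ± 0.14, adjusted p = 0.0204). EPB41L4A-AS1, named for a band 4.1 family protein, stood at 7.46 with and 7.45 without X-rays at 41.5 °C, against 6.98 with and 6.73 without at 37 °C (1.51-fold, 0.60 ± 0.10, adjusted p = 0.0103). RPL26L1-AS1, named for a paralogue of ribosomal protein L26, stood at 6.11 with and 6.08 without X-rays at 41.5 °C, against 5.59 with and 5.52 without at 37 °C (1.46-fold, 0.54 ± 0.12, adjusted p = 0.0355). All 4 had 44 °C levels under those at 41.5 °C.

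The member that fell at 41.5 °C was HIF1A-AS2, which overlaps the end of the gene for the hypoxia factor HIF1A and is known to reduce its mRNA. It stood at 5.07 with and 5.60 without X-rays at 41.5 °C, against 6.02 with and 6.02 without at 37 °C (log2 difference -0.68 ± 0.15, adjusted p = 0.0346). Its 44 °C arrays lay at 6.39 with and 6.37 without X-rays, so 41.5 °C was the lowest of the 3 temperatures. HIF1A itself was not among the named features used here. All 5 calls were lost without the control array (adjusted p 0.119 to 0.281) and without the irradiated 37 °C array (0.191 to 0.422). Without the unirradiated 41.5 °C array 2 were lost, and without the irradiated one 3, leaving EPB41L4A-AS1 and PRR7-AS1. The share called over all genes was also smaller without any 1 of these arrays. The HIF1A-AS2 difference was -0.41 without the irradiated 41.5 °C array. A second RPL26L1-AS1 feature differed by 0.26 here but by 0.75 at 44 °C against 37 °C, where the one used differed by -0.21, and with the mean of both the RNA was not called at 41.5 °C (adjusted p = 0.161).

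**Figure D3:**
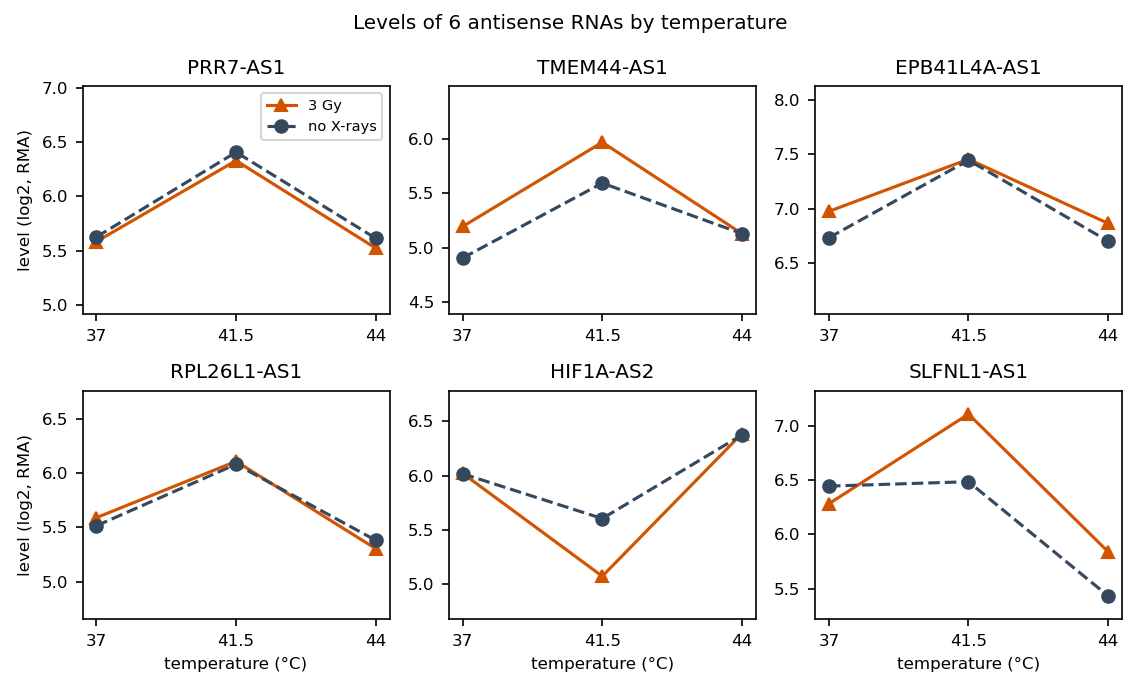
Level (y, log2 RMA) of 6 antisense RNAs against the temperature of the 1 h treatment (x, °C), with orange triangles for 3 Gy and dark circles for no X-rays, 1 array a point and each panel with its own y range. PRR7-AS1, TMEM44-AS1, EPB41L4A-AS1 and RPL26L1-AS1 peak at 41.5 °C, HIF1A-AS2 is lowest there at 5.07 and 5.60, and SLFNL1-AS1 is lowest at 44 °C.

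The difference between the heatings themselves was the comparison with most calls. At 44 °C against 41.5 °C, 27 of the 121 members were called, 8 higher and 19 lower, or 22.3%. Of all genes 12.1% were called, 4.9% higher and 7.23% lower, and of those with a level of 5 or more 17.9%. The median difference of the members was -0.06, against -0.02 for all genes and -0.03 for those at 5 or more. Without the 4 members that entered through the 44 °C arrays, all of them higher here, 23 of 117 were called (19.7%), 4 higher and 19 lower. Of the 27 calls, 11 held when each of the 6 arrays was left out in turn: DLGAP1-AS1, EPB41L4A-AS1, TMEM147-AS1, SLFNL1-AS1, GAS6-AS1, LHX4-AS1, HIF1A-AS2, PRR7-AS1, RPL26L1-AS1, MORF4L2-AS1 and PTOV1-AS1. Leaving out the irradiated 41.5 °C array cost most, with 14 of the 27 calls lost (adjusted p 0.0555 to 0.310) and none reversed.

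Of the 8 that were higher at 44 °C, PTOV1-AS1 was 2.37-fold (log2 difference 1.25 ± 0.14, adjusted p = 0.000459), MORF4L2-AS1 2.29-fold (1.19 ± 0.14, adjusted p = 0.000496) and HIF1A-AS2 2.06-fold (1.04 ± 0.15, adjusted p = 0.00147) above 41.5 °C. For PTOV1-AS1 the 41.5 °C levels were 4.79 with and 4.59 without X-rays, under both of its 37 °C levels. TSPEAR-AS2, whose window across the start carries the 3 heat shock half-sites, stood at 5.47 with and 5.79 without X-rays at 44 °C, 4.93 with and 5.07 without at 41.5 °C, and 5.15 with and 5.38 without at 37 °C. It was higher at 44 °C than at 41.5 °C (0.63 ± 0.13, adjusted p = 0.0103) and did not pass the test at 44 °C against 37 °C (0.37 ± 0.13, adjusted p = 0.131). UXT-AS1 (0.65 ± 0.14), PRC1-AS1 (0.56 ± 0.14), THAP9-AS1 (0.49 ± 0.13) and FGD5-AS1 (0.42 ± 0.09) had adjusted p values of 0.012, 0.0238, 0.0309 and 0.0126. FGD5-AS1, one of the most abundant members, stood at 7.55 with and 7.55 without X-rays at 44 °C, against 7.06 with and 7.20 without at 41.5 °C. UXT-AS1, PRC1-AS1, THAP9-AS1, FGD5-AS1 and TSPEAR-AS2 each lost the call without at least 1 of the arrays at 44 °C or 41.5 °C. The THAP9-AS1 difference was 0.29 without the irradiated 41.5 °C array.

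Of the 19 that were lower, SLFNL1-AS1 differed most. It stood at 5.84 with and 5.43 without X-rays at 44 °C, against 7.11 with and 6.48 without at 41.5 °C, and was 2.23-fold lower (log2 difference -1.16 ± 0.16, adjusted p = 0.00145). GAS6-AS1 stood at 5.96 with and 5.51 without X-rays at 44 °C, against 7.07 with and 6.15 without at 41.5 °C (-0.88 ± 0.13, adjusted p = 0.00223). PRR7-AS1 was 1.74-fold lower (-0.80 ± 0.11, adjusted p = 0.00134) and TMEM147-AS1 1.73-fold lower (-0.79 ± 0.12, adjusted p = 0.00236). LHX4-AS1, named for a LIM homeodomain factor, stood at 5.51 with and 5.56 without X-rays at 44 °C, against 6.40 with and 6.18 without at 41.5 °C (-0.76 ± 0.12, adjusted p = 0.00252). Further down the order came RPL26L1-AS1 (-0.75), GABPB1-AS1 (-0.70), EPB41L4A-AS1 (-0.67), TMEM44-AS1 (-0.65) and SLC25A21-AS1 (-0.63), the last named for a mitochondrial carrier. The RPL26L1-AS1 call ended with the mean of its features (adjusted p = 0.636), whose second feature stood at 4.36 with and 4.28 without X-rays at 44 °C, against 3.72 with and 3.93 without at 41.5 °C. The other 9 were DLGAP1-AS1, PSMA3-AS1, CCDC18-AS1, SLC25A25-AS1, MRPL20-AS1, PRRT3-AS1, SVIL-AS1, NIFK-AS1 and ARHGAP5-AS1. Of these PSMA3-AS1 (-0.57) leaned on 1 array: its difference was -0.28 without the irradiated 44 °C array (adjusted p = 0.316) and -0.86 without the unirradiated one. Over all 3 temperature comparisons 30 of the 121 members were called at least once and 91 never.

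X-rays were tested over 3 irradiated and 3 unirradiated arrays. None of the 121 members was called, and none of the 14884 genes, so the background was 0%. With limma at an unadjusted p under 0.05, 5 members (4.13%) and 733 genes (4.92%) were found. GAS6-AS1 had the largest difference. It was 6.84 in irradiated and 5.93 in unirradiated cells at 37 °C, 7.07 in irradiated and 6.15 in unirradiated cells at 41.5 °C, and 5.96 in irradiated and 5.51 in unirradiated cells at 44 °C, so the irradiated array was the higher one at every temperature, by 0.90 at 37 °C, 0.92 at 41.5 °C and 0.44 at 44 °C. The fitted difference of 0.75 ± 0.11 did not pass (adjusted p = 0.190). With 1 of the 44 °C arrays left out it was 0.91. The remaining 44 °C array then adds nothing to it in the additive model. Leaving out either one thus gives the same estimate, from the 37 °C and 41.5 °C pairs alone. The second GAS6-AS1 feature differed by -0.06 at 37 °C, 0.69 at 41.5 °C and 0.04 at 44 °C, and GAS6 itself by -0.01 ± 0.10 over the 3 temperatures. TRAF3IP2-AS1, named for an adaptor of an interleukin receptor, was 5.32 in irradiated and 4.70 in unirradiated cells at 37 °C, with a fitted difference of 0.41 ± 0.12 (adjusted p = 0.782), and is 1 of 3 members that passed the level threshold only through the irradiated arrays.

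The combined treatments were also set against the sum of their parts. The departure is the log2 level after both treatments minus heat alone, minus X-rays alone, plus the control, and with 1 array a group it has no test. PCNA-AS1, named for the gene of the replication clamp PCNA, had the lowest departure at 44 °C, -1.11. Its X-ray difference was 0.50 at 37 °C and 0.48 at 41.5 °C but -0.61 at 44 °C, where it stood at 6.58 in irradiated and 7.19 in unirradiated cells. PCNA had a departure of -0.50 at 44 °C, with levels of 9.58 in irradiated and 9.72 in unirradiated cells there, against 10.24 in irradiated and 9.88 in unirradiated cells at 37 °C. With 1 of the 44 °C arrays left out the X-ray difference of PCNA-AS1 was 0.49. That value rests on the 37 °C and 41.5 °C pairs alone and leaves out the opposite difference at 44 °C. PSMA3-AS1, named for a proteasome subunit, followed at -0.67, and the highest at 44 °C were NUTM2A-AS1 at 0.82 and EHBP1-AS1 at 0.65. At 41.5 °C the highest were SLFNL1-AS1 at 0.78 and VPS9D1-AS1 at 0.77, and the lowest PRR34-AS1 at -0.62 and HIF1A-AS2 at -0.53. For NUTM2A-AS1 the X-ray difference was -0.58 at 37 °C, -0.13 at 41.5 °C and 0.24 at 44 °C, and the larger part of its departure lies in the 37 °C pair.

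**Figure D4:**
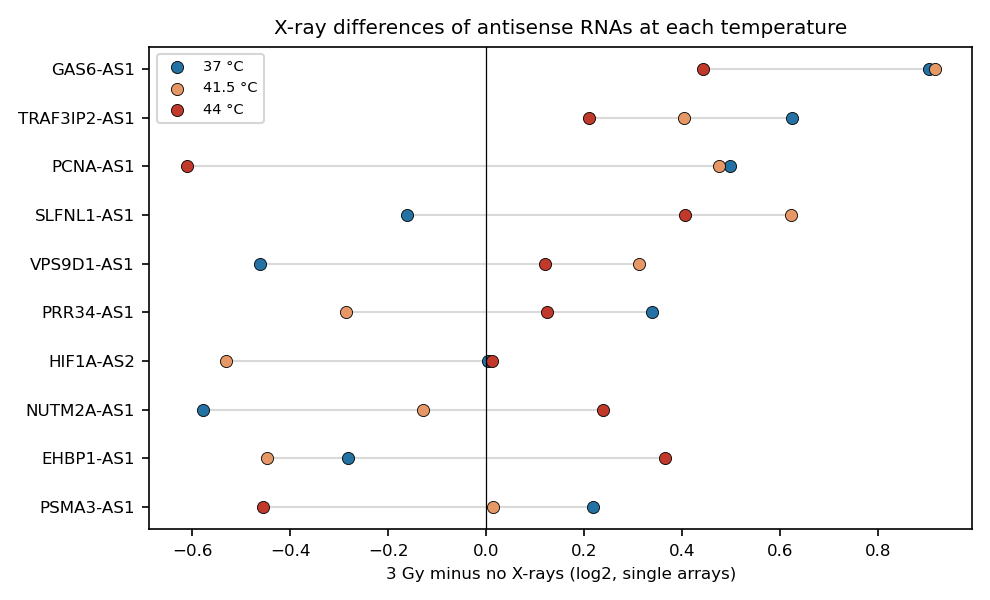
X-ray difference (x, log2 level of the irradiated minus the unirradiated array) of 10 antisense RNAs (rows) at 37 °C (blue), 41.5 °C (orange) and 44 °C (red), each point the difference of 2 single arrays. GAS6-AS1 and TRAF3IP2-AS1 lie right of 0 at every temperature, and PCNA-AS1 lies at 0.50 and 0.48 at 37 °C and 41.5 °C but at -0.61 at 44 °C.

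The sense gene named in the symbol was measured for 77 of the 121 members. Across these 77 pairs the antisense and sense differences had the same sign in 41 pairs at 44 °C against 37 °C, in 43 at 41.5 °C against 37 °C, in 38 at 44 °C against 41.5 °C and in 48 for X-rays. Pearson's r across the pairs was 0.14 at 44 °C against 37 °C, 0.01 at 41.5 °C against 37 °C, 0.16 at 44 °C against 41.5 °C and 0.01 for X-rays, a description across genes that share the same arrays. Of the 77 sense genes, 2 were called at 44 °C against 37 °C (2.6%), under the 6.11% of all genes. At 41.5 °C against 37 °C 5 were called (6.49%, beside 3.29% of all genes). At 44 °C against 41.5 °C 10 were called (13%, beside 12.1%). At 44 °C against 37 °C the antisense RNA alone was called in 10 pairs, the sense gene alone in 2 and both in 0. At 41.5 °C against 37 °C the counts were 4, 5 and 0. At 44 °C against 41.5 °C they were 16, 7 and 3. The level threshold was set for the antisense RNAs only, so these counts do not compare them with their sense genes on equal terms. MORF4L2-AS1 and PTOV1-AS1, among the 10 at 44 °C against 37 °C, passed the threshold only through the 44 °C arrays. Of all members 10.7% were called in that comparison, beside 8.77% of genes at 5 or more. The 3 pairs called together, in the same direction, were MORF4L2-AS1 with MORF4L2, PRC1-AS1 with PRC1 and NIFK-AS1 with NIFK. MORF4L2-AS1 and PRC1-AS1 passed the level threshold only through the 44 °C arrays, so their direction here follows from their choice.

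Within the pairs, sizes often differed. MORF4L2 differed by 0.41 ± 0.10 between 44 °C and 41.5 °C (adjusted p = 0.0224), with levels of 9.37 with and 9.42 without X-rays at 44 °C, against 8.83 with and 9.13 without at 41.5 °C, while MORF4L2-AS1 differed by 1.19. PRC1, a microtubule crosslinker of dividing cells, differed by 0.47 ± 0.13 (adjusted p = 0.0469), beside 0.56 for PRC1-AS1. NIFK differed by -0.70 ± 0.07 (adjusted p = 0.000236), beside -0.46 for NIFK-AS1. NIFK rose at 41.5 °C against 37 °C, where it stood at 9.75 with and 9.96 without X-rays, against 9.22 with and 9.31 without (0.59 ± 0.07, adjusted p = 0.00309), while NIFK-AS1 differed by 0.02 ± 0.11. The sense genes of several called members did not pass: PTOV1 differed by -0.04 ± 0.12 at 44 °C against 37 °C, TMEM147 by -0.21 ± 0.08, GAS6 by -0.05 ± 0.12, SLFNL1 by 0.21 ± 0.13 and PDCD4 by -0.10 ± 0.11. PRR7 differed by 0.04 ± 0.12 at 41.5 °C against 37 °C and TMEM44 by -0.19 ± 0.16. EPB41L4A fell at 44 °C against 37 °C (-0.44 ± 0.11, adjusted p = 0.0474), while EPB41L4A-AS1 differed by -0.07 ± 0.10 there and rose at 41.5 °C. FRMD6 rose at 41.5 °C (0.66 ± 0.12, adjusted p = 0.0182), with 5.91 with and 5.79 without X-rays, against 5.28 with and 5.11 without at 37 °C, while FRMD6-AS1 fell at 44 °C. The NIFK-AS1 call between 44 °C and 41.5 °C held under 5 of 12 settings. Among the sense genes, the NIFK call between 44 °C and 41.5 °C held with each array left out in turn. The others were each lost without 1 array or more, with highest adjusted p values of 0.202 for MORF4L2, 0.407 for PRC1, 0.136 for NIFK at 41.5 °C, 0.324 for EPB41L4A and 0.231 for FRMD6. Without the irradiated array at 41.5 °C the MORF4L2 difference was 0.24 and that of PRC1 0.21, and PRC1 stood at 0.19 without the irradiated and 0.74 without the unirradiated array at 44 °C.

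Among pairs in which only the sense gene was called, chosen here after their values were seen, MAP3K14 differed most. It encodes the kinase NIK of noncanonical NF-κB signalling and stood at 8.16 with and 8.33 without X-rays at 41.5 °C, against 7.13 with and 7.43 without at 37 °C (log2 difference 0.96 ± 0.09, adjusted p = 0.000652). MAP3K14-AS1 stood at 6.33 with and 6.17 without X-rays at 41.5 °C, against 6.37 with and 6.47 without at 37 °C (-0.17 ± 0.11, adjusted p = 0.508). URB1, a nucleolar ribosome assembly gene, rose at 41.5 °C (0.45 ± 0.10, adjusted p = 0.0322) and was lower at 44 °C than at 41.5 °C (-0.81 ± 0.10, adjusted p = 0.000559), whereas URB1-AS1 differed by -0.35 ± 0.11 at 41.5 °C against 37 °C and by -0.04 ± 0.11 at 44 °C against 41.5 °C. ZBTB11, a zinc finger transcription factor, rose at 44 °C against 37 °C (0.54 ± 0.10, adjusted p = 0.00961), beside -0.17 ± 0.16 for ZBTB11-AS1. STARD4, a sterol carrier, was higher at 44 °C than at 41.5 °C (0.65 ± 0.12, adjusted p = 0.00534), beside 0.27 ± 0.16 for STARD4-AS1. The 44 °C against 41.5 °C calls of URB1 and STARD4 held with each array left out in turn. The others were lost without the irradiated 37 °C array (MAP3K14, adjusted p = 0.0761) or without one or the other 37 °C array (ZBTB11, up to 0.222, and URB1 at 41.5 °C, up to 0.366; URB1 also without one or the other 41.5 °C array).

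**Figure D5:**
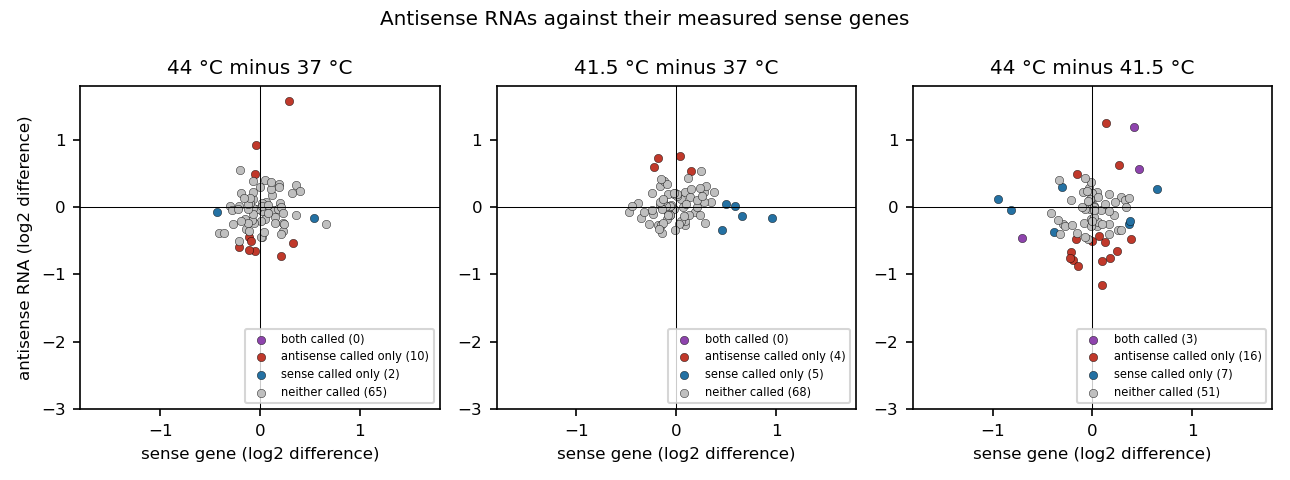
Log2 difference of the antisense RNA (y) against that of its sense gene (x) for the 77 measured pairs, at 44 °C against 37 °C, 41.5 °C against 37 °C and 44 °C against 41.5 °C, with purple where both were called, red where the antisense RNA alone and blue where the sense gene alone. Most red points lie near 0 on the x axis, and the 3 purple points at 44 °C against 41.5 °C have the same sign on both axes.

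By the start sites listed in RefSeq for GRCh38.p14, 90 members could be placed beside their sense gene, all 90 on the opposite strand. In 39 the nearest starts lay within 1000 bases, at a median distance of 347 bases. Whether the genes of these close-start pairs run apart or overlap was not checked. In 45 the genes overlapped with starts farther apart, and in 6 they did not overlap. For 29 no placement was made, and 2 symbols name a gene cluster. Between 44 °C and 41.5 °C, 7 of the 39 close-start members were called, 2 higher and 5 lower (17.9%). Of the 45 overlapping ones with starts farther apart 12 were called, 2 higher and 10 lower (26.7%). The backgrounds were 17.9% of genes at 5 or more and 12.1% of all genes. The close-start share was thus that of genes at this level, and the difference between the arrangements was not tested. Among the close-start members were PRR7-AS1 with starts 381 bases apart, TMEM147-AS1 with 403, UXT-AS1 with 347, ZNF674-AS1 with 69 and RPL26L1-AS1 with 488. In the 21 close-start pairs with both genes measured, 0 pairs had both genes called in any temperature comparison. Across these pairs r was 0.35 at 44 °C against 37 °C, -0.06 at 41.5 °C against 37 °C and 0.06 at 44 °C against 41.5 °C.

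Genes that make and remove such transcripts were read from lists. Of 19 measured genes of the nuclear RNA exosome and its adaptors, 7 were called at 44 °C against 41.5 °C, 1 higher and 6 lower (36.8%, against 12.1% of all genes and 17.9% of those at 5 or more), with a median of -0.21, against -0.02 for all genes. The core subunit EXOSC3 stood at 7.21 with and 7.27 without X-rays at 44 °C, against 7.78 with and 7.84 without at 41.5 °C (-0.57 ± 0.09, adjusted p = 0.00251), and the helicase gene MTREX at 8.88 with and 8.84 without, against 9.21 with and 9.31 without at 41.5 °C (-0.40 ± 0.08, adjusted p = 0.00822). RBM7, of the NEXT adaptor, was higher (0.47 ± 0.12, adjusted p = 0.0331). At 44 °C against 37 °C 3 of the 19 were called (15.8%). TENT4B, a poly(A) polymerase of the TRAMP complex, rose (0.52 ± 0.10, adjusted p = 0.0154) and EXOSC7 (-0.50 ± 0.11, adjusted p = 0.0223) and MTREX (-0.37 ± 0.08, adjusted p = 0.0186) fell. Of 12 cleavage and polyadenylation genes 1 (8.33%) was called there, beside 8.77% of genes at 5 or more, the poly(A) polymerase gene PAPOLA, with 8.21 with and 7.64 without X-rays at 44 °C, against 7.02 with and 6.99 without at 37 °C (0.92 ± 0.17, adjusted p = 0.0102). The PAPOLA difference was 0.55 without the irradiated 44 °C array and 1.28 without the unirradiated one. Of 11 Integrator subunits 2 were called at 44 °C against 37 °C (18.2%): INTS6 rose (0.73 ± 0.11, adjusted p = 0.00385) and INTS8 fell (-0.43 ± 0.09, adjusted p = 0.021). At 44 °C against 41.5 °C, 2 of the 12 cleavage and polyadenylation genes (16.7%) and 2 of the 11 Integrator subunits (18.2%) were called. The EXOSC3 call held with each array left out in turn. The 44 °C against 37 °C calls were all lost without the control array (over the arrays left out in turn the adjusted p was at most 0.328, for EXOSC7), and the MTREX and RBM7 calls between 44 °C and 41.5 °C without some of the arrays (at most 0.0603 and 0.270).

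Other classes of noncoding RNA were counted the same way. Of 73 intergenic LINC RNAs with a level of 5 or more, 11 were called at 44 °C against 37 °C, 5 higher and 6 lower (15.1%). Of genes at that level 8.77% were called and of all genes 6.11%, and the median of the LINC RNAs was -0.05. Their threshold used all arrays too. LINC00926, 1 of the 5 higher, stood at 5.49 with and 5.79 without X-rays at 44 °C, against 4.82 with and 5.155 without at 37 °C and 4.88 with and 4.67 without at 41.5 °C. It thus passed only through the 44 °C arrays. LINC00641 stood at 9.33 with and 9.35 without X-rays at 44 °C, against 7.05 with and 7.14 without at 37 °C (2.24 ± 0.08, adjusted p = 1.7e-07), and LINC00173 at 5.25 with and 5.17 without, against 6.45 with and 6.83 without at 37 °C (-1.43 ± 0.15, adjusted p = 0.000213). None of the 121 members differed by as much as LINC00641 there, whereas PARD6G-AS1 (2.88) and IDI2-AS1 (2.82), left out by name, differed by more. Of 11 intronic or overlapping transcripts with an -IT1 or -OT1 suffix, 3 (27.3%) rose at 44 °C against 37 °C, beside the same backgrounds. GABPB1-IT1, an intronic transcript of GABPB1, stood at 6.13 with and 6.35 without X-rays at 44 °C, against 5.19 with and 5.35 without at 37 °C (0.97 ± 0.11, adjusted p = 0.000593), while GABPB1-AS1 fell by 0.80 in the same arrays. Of 10 SNHG genes, hosts of small nucleolar RNAs, 3 (30%) rose at 41.5 °C against 37 °C, beside 3.29% of all genes called in either direction and 5.32% of those at 5 or more. They were SNHG8 (0.69 ± 0.09, adjusted p = 0.00332), SNHG15 (0.56 ± 0.10, adjusted p = 0.0175) and GAS5 (0.47 ± 0.09, adjusted p = 0.0178). SNHG8 and GAS5 were lower at 44 °C than at 41.5 °C (-0.76 ± 0.09 and -0.73 ± 0.09), as were PRR7-AS1, TMEM44-AS1 and EPB41L4A-AS1 among the members. Of 12 nuclear or architectural long noncoding RNAs, a list that includes the member EPB41L4A-AS1, 2 (16.7%) rose at 44 °C against 37 °C, KCNQ1OT1 (1.25 ± 0.19, adjusted p = 0.00328), itself antisense to KCNQ1, and RPPH1 (0.39 ± 0.10, adjusted p = 0.0473). The calls of LINC00641, LINC00173 and GABPB1-IT1 at 44 °C against 37 °C, and of SNHG8 and GAS5 between 44 °C and 41.5 °C, held with each array left out in turn. KCNQ1OT1 was lost without the irradiated 37 °C array (adjusted p = 0.124), and RPPH1 and the SNHG calls at 41.5 °C without one or the other 37 °C array (at most 0.326 for RPPH1). RPPH1 was also lost without one or the other 44 °C array, SNHG15 without one or the other 41.5 °C array and GAS5 without the unirradiated 41.5 °C array. Antisense symbols under the level threshold were called in 9 of 353 at 44 °C against 37 °C (2.55%), IDI2-AS1 among the 9.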

How the data were processed

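The authors deposited log2 values made by RMA, with Affymetrix Expression Console 1.1, per the submitters' processing notes. Per the labels' protocols, RNA was amplified by in vitro transcription from random primers. The sources used here give no genome build for the probes. Of 53617 features, 16098 carry exactly 1 gene symbol in the platform annotation. For the 779 genes with several features the one with the highest mean was used, which left 14884 genes.

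In limma 3.58.1 (R 4.3.3), with an intensity trend, the 6 arrays were fitted by an additive model of temperature (37, 41.5 and 44 °C) and X-rays. It leaves 2 residual degrees of freedom, which hold interaction as well as noise. Two-sided p-values were adjusted over all 14884 genes by Benjamini-Hochberg, with a call under 0.05. Differences are given ± SE, from pairs of arrays per temperature, and from 3 irradiated and 3 other arrays for X-rays. The median SE was 0.138 between temperatures and 0.113 for X-rays, and the number of arrays limits this precision. The script was tested on simulated data. Sense genes were matched by symbol. All 121 members were matched to RefSeq by gene ID, and 120 are listed there as long noncoding RNAs.

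Members and lists were chosen with earlier results of these data known. Named members are the called ones with the largest differences in each direction and the same sign in every matched pair of arrays, the 5 of highest level, those beside the threshold, and the highest and lowest departures, with their sense genes. List genes are named from those called.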

Additional observations from a re-analysis of the deposited data

How the results depend on the processing

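At 44 °C against 37 °C the 13 calls (6.11% of all genes tested called) became 5 without the intensity trend (2.72%), 20 with only genes at a level of 5 or more in the fit (10.9%), 20 with only the 4 arrays compared (8.07%) and 6 of 32 members at a level of 6 or more. Leaving out 1 array gave 1 to 21 (1.77% to 8.14%). A further quantile normalization (7.26%) and median centring (6.75%) gave 19 each, 4 higher and 15 lower. At 41.5 °C against 37 °C the 5 calls became 0 without the trend (0.0605%), 1 among members at 6 or more, and 0 to 6 without 1 array (0.128% to 5.37%). At 44 °C against 41.5 °C the 27 calls became 12 among members at 6 or more and 14 to 22 without 1 array (6.88% to 8.73%). For X-rays 0 calls became 0 to 2 (0% to 0.571%). Without the trend, 18 members were called at 44 °C against 41.5 °C (5.31%). The percentages are the shares of all genes tested that were called under each setting. Only 32 members lay at 6 or more, so their counts are to be read against 32 and not 121. The share called among all genes at 6 or more was not taken. Where an array was left out, the lone array at its temperature is assumed to vary like the others. The causes of these shifts were not tested, beyond the smaller number of members at 6 or more.

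The 48 called values of named genes were recomputed under 12 settings each: of 576, 423 kept the call, 153 lost it and 0 changed sign. The 12 values that kept it under every setting include MORF4L2-AS1 in both comparisons with 44 °C, which passed the level threshold only through the 44 °C arrays. Of 180 uncalled values, 85 changed sign under at least 1 setting and 20 were called under at least 1. The scaling moved the median of all genes at 44 °C against 37 °C between -0.04 and -0.09. No paired analysis was possible because each group is 1 array with no replicate number in the labels. The matching of irradiated and unirradiated arrays within a temperature is part of the additive model. Signal over background was not used here.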
